A study of Mus musculus with 24 samples.

Results

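Expression of 10 CC chemokine genes was followed in mouse dorsal skin: Ccl2, Ccl7, Ccl8, Ccl11, Ccl12, Ccl17, Ccl20, Ccl22, Ccl24 and Ccl27a. They were taken by GENCODE M21 symbol from the 39017 genes of the count table, as CC chemokines made by skin and myeloid cells. The rule uses no measured value, but the genes were listed with earlier results of these data known. Total RNA of female C3H/HeJ mice was sequenced in 24 libraries, 6 in each of 4 groups. This inbred strain can lose its hair spontaneously, and alopecia areata (AA), an autoimmune attack on the growing hair follicle, was induced in the diseased mice by grafting skin of affected animals.

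The 8w off Tx group is AA skin taken at the end of the experiment in week 12, 8 weeks after a 4-week course of Compound A, a JAK1-selective inhibitor given by mouth at about 100 mg/kg once daily. The systemic JAK1i group is AA skin under that drug, sampled as biopsies of living mice at week 4. Both groups come from the same mice according to the study's methods, but the library letters A to F do not tie a biopsy to its terminal sample. The AA group is skin of untreated mice with fully developed disease, and the healthy group is skin of untreated healthy mice. Both were collected at week 12. The sample labels give an age of about 30 weeks for mice of all 4 groups, the week 4 biopsies included. On drug or off drug, biopsy or terminal skin, and week 4 or week 12 therefore cannot be told apart in any comparison with the JAK1i group. The paper's hair scores also differ at the start. The treated mice that were followed off drug still had part of their hair before dosing, and the untreated AA mice had none. That difference cannot be told apart from treatment when JAK1i or 8w off Tx skin is set against AA skin. The length of the drug course is given as the sample names and the methods state it, since the series description differs. Library letters name separate samples, and p-values measure the spread between them. The main fit held no term for the mouse. Its p-values for 8w off Tx against JAK1i skin thus treat samples of the same mice as independent.

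CC chemokines are small secreted proteins that draw leukocytes along a gradient by binding G protein-coupled receptors on their surface. Inflammatory members are switched on in resident and infiltrating cells by cytokines, among them interferon-gamma, which signals through JAK1 and JAK2, and IL-4 and IL-13, which signal through JAK1. Others are made constitutively, such as CCL27, a product of keratinocytes that attracts skin-homing T cells. In AA, interferon-producing CD8+ T cells gather around the hair bulb together with other leukocytes.

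Total counts per library lay between 3444193 and 11233020, with a median of 5517357. Markers of keratinocytes, fibroblasts and the monocyte and macrophage lineage were present in every library, with summed levels of at least 6722, 1840 and 259 normalised CPM, the counts of a gene scaled to a common library size. Skeletal muscle markers summed to between 225 and 31339 CPM. They were highest in 8w off Tx libraries A and E, at 29414 and 31339 CPM, and lowest in healthy libraries A and E, at 256 and 225 CPM. In bulk skin, fewer cells of a type cannot be told apart from less RNA per cell.

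Of the 10 genes, 9 passed the filter on low counts and entered the test over 16248 genes. Ccl12, with 132 counts over all libraries, did not. A set of 5 members forms a run of 81.2 kb on chromosome 11 (GRCm38, chr11:82035571-82116799), in the order Ccl2, Ccl7, Ccl11, Ccl12 and Ccl8, all on the plus strand. Ccl22 and Ccl17 lie within 66.4 kb on chromosome 8 (chr8:94745590-94812036), also on the plus strand. Ccl20 is at chr1:83116766-83119167 on the plus strand. Ccl24 at chr5:135569937-135573049 and Ccl27a at chr4:41769467-41774247 are on the minus strand. All are annotated as protein-coding. Their identifiers are ENSMUSG00000035385 (Ccl2), ENSMUSG00000035373 (Ccl7), ENSMUSG00000009185 (Ccl8), ENSMUSG00000020676 (Ccl11), ENSMUSG00000035352 (Ccl12), ENSMUSG00000031780 (Ccl17), ENSMUSG00000026166 (Ccl20), ENSMUSG00000031779 (Ccl22), ENSMUSG00000004814 (Ccl24) and ENSMUSG00000073888 (Ccl27a).

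Levels were compared between genes as TPM, which are scaled by transcript length. In 8w off Tx skin, Ccl27a at 40.9 ± 20.6 TPM (SD, n = 6, as for every mean here) and Ccl8 at 36.4 ± 34.2 TPM did not differ beyond their spread, and Ccl2 came next at 6.43 ± 5.54 TPM. In the JAK1i group the order was Ccl27a at 78.5 ± 12.8 TPM, Ccl8 at 23.3 ± 36.0 TPM and Ccl11 at 7.28 ± 2.34 TPM. In AA skin, Ccl8 led at 195 ± 109 TPM, ahead of Ccl27a at 39.1 ± 19.5 TPM and Ccl17 at 14.6 ± 15.4 TPM. Healthy skin had the order of the JAK1i group for its leading members, with Ccl27a at 107 ± 33.6 TPM, Ccl8 at 35.5 ± 15.4 TPM and Ccl11 at 12.7 ± 4.59 TPM. Ccl12 and Ccl20 were low everywhere, with group means of at most 1.81 and 2.24 TPM. All levels below are TMM-normalised CPM and are compared only within a gene.

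**Figure D1:**
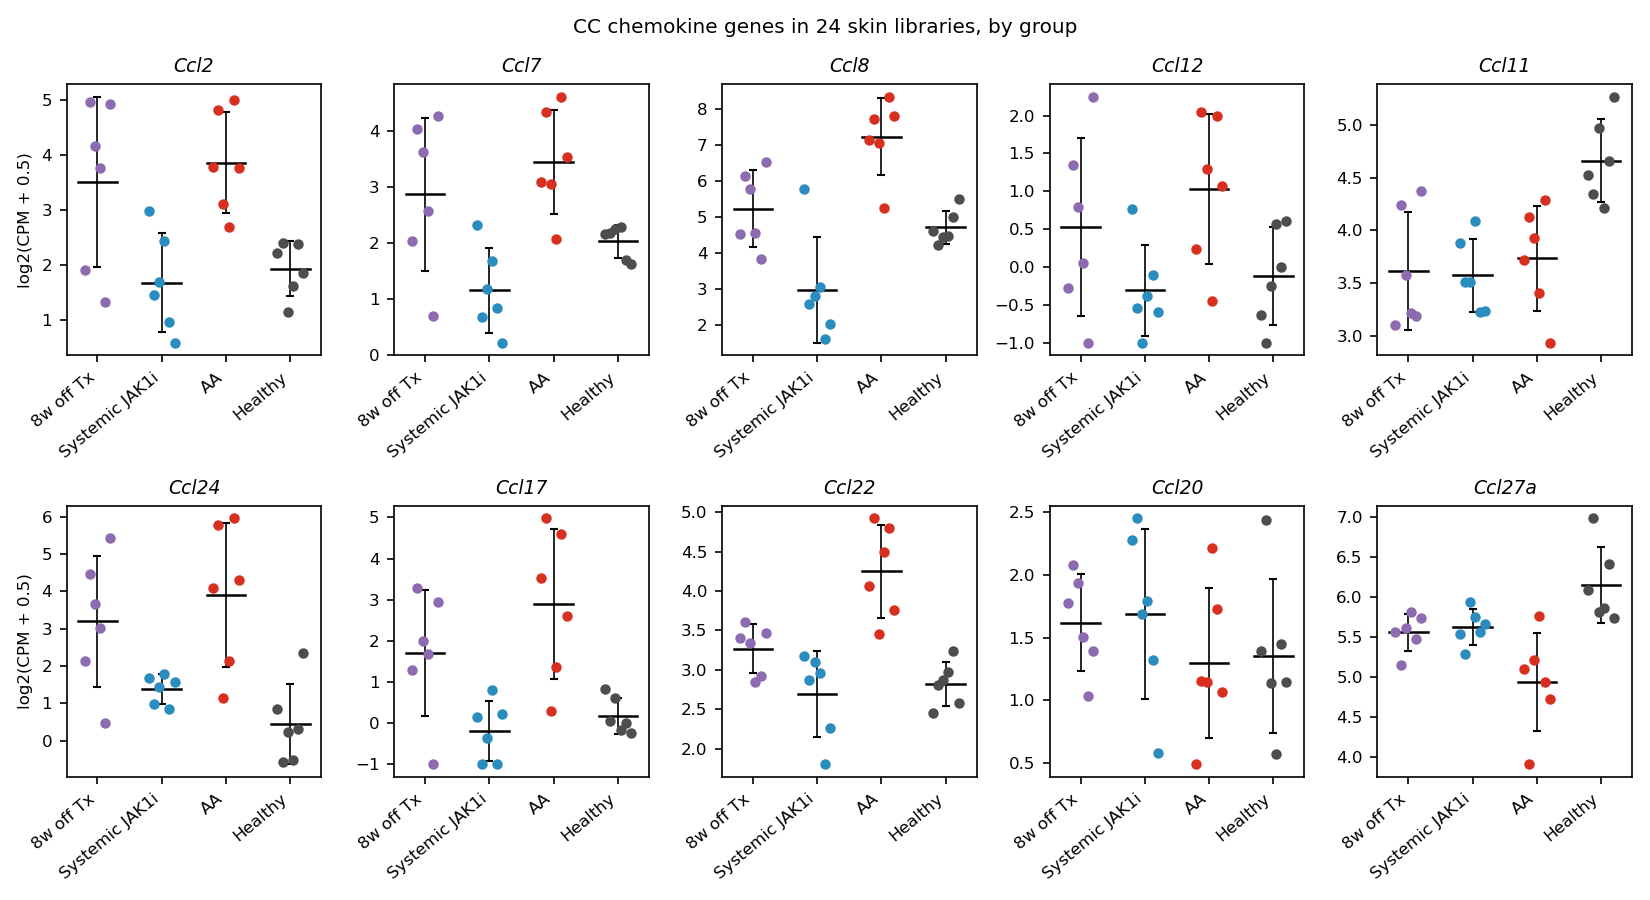
Levels of the 10 chemokine genes in each library, as log2(CPM + 0.5), a panel for each gene, with groups in the order 8w off Tx, systemic JAK1i, AA and healthy. Points are libraries and bars the mean ± SD of 6. Ccl2, Ccl7, Ccl8, Ccl17, Ccl22 and Ccl24 are high in AA and low in the JAK1i group, Ccl11 and Ccl27a are highest in healthy skin, and Ccl20 shows no such order.

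Most of these genes changed in AA skin, and those that were higher there were lower again under the drug. In AA against healthy skin, 8 of the 9 genes tested passed an adjusted p of 0.05, 6 of them higher (Ccl2, Ccl7, Ccl8, Ccl17, Ccl22 and Ccl24) and 2 lower (Ccl11 and Ccl27a). Of all genes tested, 40.2% passed in that comparison, 20.9% higher and 19.3% lower. The median log2 fold change was 1.75 over the 9 members and 0.001 over all genes. In the JAK1i group against AA, Ccl2, Ccl7, Ccl8, Ccl17, Ccl22 and Ccl24 fell and Ccl27a rose, which is 7 of 9 against 47.7% of all genes (22.9% higher, 24.8% lower), with medians of -2.32 and -0.006. Against healthy skin, only Ccl11 passed in the JAK1i group, lower, where 1.05% of all genes passed (0.511% higher, 0.535% lower) and the medians were -0.41 and -0.012.

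After the drug was stopped, some members were high again on the count scale and others were not. In 8w off Tx against JAK1i skin, 5 of 9 rose by counts (Ccl2, Ccl7, Ccl8, Ccl17 and Ccl24) and none fell, beside 35.9% of all genes (19.4% higher, 16.6% lower), with medians of 1.79 and -0.001. Against healthy skin, 4 were higher (Ccl2, Ccl7, Ccl17 and Ccl24) and Ccl11 and Ccl27a were lower, beside 32.7% of all genes (16.9% higher, 15.7% lower), with medians of 0.78 and 0.009. Against AA, only Ccl22 passed, lower, beside 1.37% of all genes (0.726% higher, 0.640% lower), with medians of -0.37 and -0.007. The comparisons share groups, so they are not independent of each other.

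The calls after the drug depended on the scale. When limma was run on log2 of the deposited TPM (pseudocount 0.1), none of those 5 rises over JAK1i skin passed: Ccl2 gave 0.718 (adjusted p = 0.31), Ccl7 0.834 (adjusted p = 0.21), Ccl8 1.08 (adjusted p = 0.14), Ccl17 1.8 (adjusted p = 0.091) and Ccl24 0.229 (adjusted p = 0.76). On that scale 3 other members were lower in 8w off Tx than in JAK1i skin, Ccl11 (-1.09, adjusted p = 0.015), Ccl20 (-1.14, adjusted p = 0.01) and Ccl27a (-1.08, adjusted p = 0.0052), while the median of all genes moved by -1.16. After the library median was subtracted from log2 TPM, Ccl2, Ccl7, Ccl8 and Ccl17 were higher and none was lower. Against healthy skin, no member was higher in 8w off Tx skin by uncentred TPM and Ccl11 and Ccl27a were lower, and after centring Ccl2 and Ccl24 were higher and Ccl11 lower. In AA against healthy skin, Ccl2 (1.7, adjusted p = 0.081) and Ccl7 (1.07, adjusted p = 0.25) did not pass by uncentred TPM, and the other 6 did. After centring Ccl2 passed and Ccl7 still did not (1.34, adjusted p = 0.055). In JAK1i against healthy skin no member passed by uncentred TPM, Ccl11 giving -0.78 (adjusted p = 0.33), and after centring Ccl11 was lower.

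**Figure D2:**
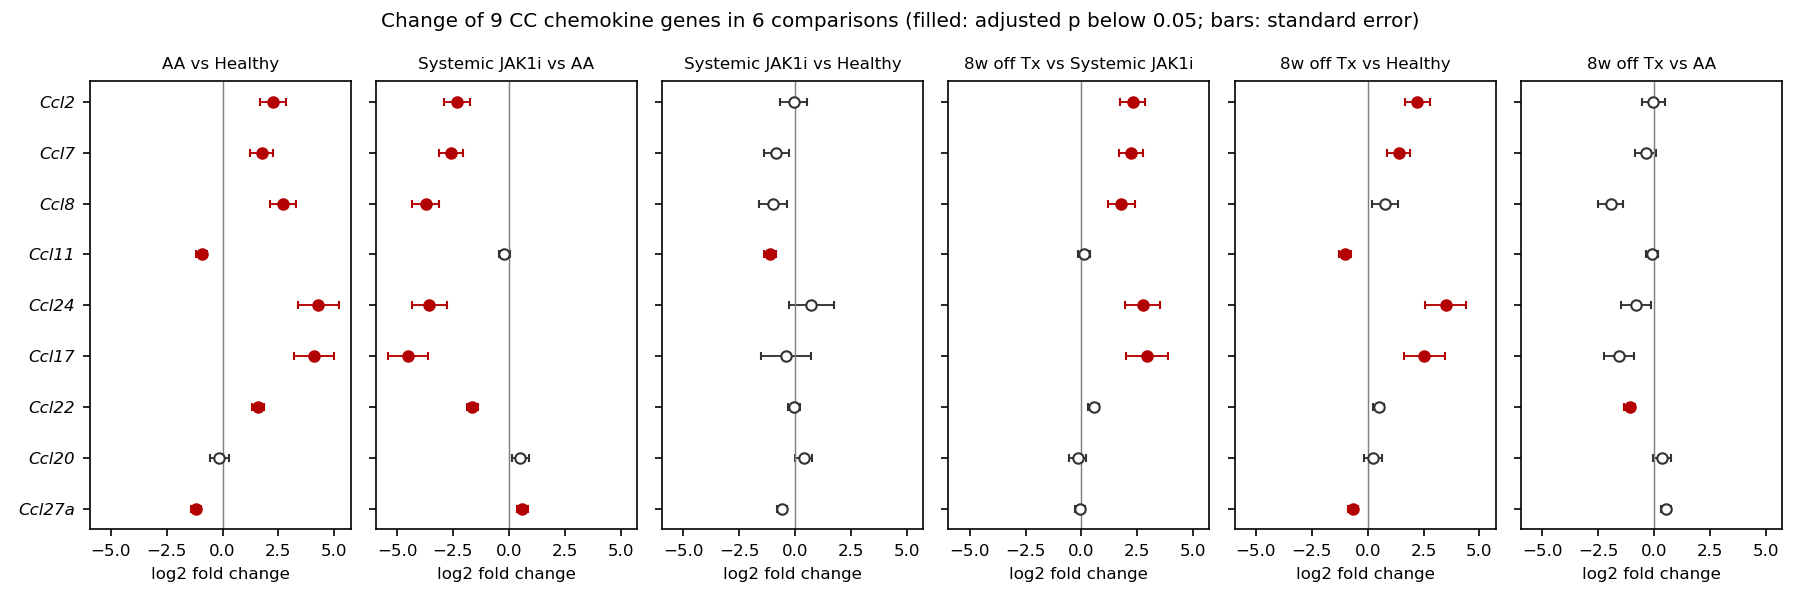
Log2 fold changes of the 9 tested genes in the 6 comparisons, a panel for each. Points are estimates with their SE, and filled points have an adjusted p below 0.05. In AA against healthy skin, Ccl24 at 4.29 and Ccl17 at 4.10 lie farthest to the right, and in JAK1i against AA skin Ccl17 at -4.51 lies farthest to the left.

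Ccl2, Ccl7, Ccl8 and Ccl12 belong to the monocyte chemoattractant proteins. Ccl2, Ccl7 and Ccl12 bind Ccr2, the receptor that brings inflammatory monocytes out of the marrow, while mouse Ccl8 acts mainly on Ccr8 of T cells. Ccl2 ranged between 1.99 and 30.7 CPM (median 15.3) in 8w off Tx skin, between 0.993 and 7.34 (median 2.47) in JAK1i skin, between 5.97 and 31.7 (median 13.1) in AA skin and between 1.7 and 4.74 (median 3.6) in healthy skin. All 6 AA libraries were above all healthy libraries, a separation in that direction that 8.17% of all genes had. Ccl2 was 4.78-fold higher in AA than in healthy skin (log2 fold change 2.26 ± 0.57 (SE), adjusted p = 0.003) and in JAK1i skin was at 20.1% of the AA level (-2.32 ± 0.56, adjusted p = 0.0017). It was 4.89-fold higher in 8w off Tx than in JAK1i skin (2.29 ± 0.56, adjusted p = 0.0026) and 4.69-fold higher than in healthy skin (2.23 ± 0.57, adjusted p = 0.0045). Its difference between 8w off Tx and AA skin was -0.03 with a 95% interval of -1.03 to 0.97, and between JAK1i and healthy skin -0.06 (-1.26 to 1.14).

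Ccl7 followed Ccl2 closely. It ranged between 1.11 and 18.7 CPM (median 8.58) in 8w off Tx skin, between 0.662 and 4.49 (median 1.53) in JAK1i skin, between 3.67 and 23.9 (median 9.57) in AA skin and between 2.57 and 4.35 (median 4.01) in healthy skin. AA library D, at 3.67 CPM, lay inside the healthy range and the other 5 AA libraries lay above it. The gene was 3.35-fold higher in AA than in healthy skin (1.75 ± 0.51, adjusted p = 0.0081) and JAK1i skin had 16.7% of the AA level (-2.58 ± 0.53, adjusted p = 3.5e-04). Levels in 8w off Tx skin were 4.63-fold above JAK1i skin (2.21 ± 0.53, adjusted p = 0.0022) and 2.59-fold above healthy skin (1.38 ± 0.51, adjusted p = 0.041). The last call was lost when any of 8w off Tx B, C or F or healthy A, C, D, E or F was left out, and held in 4 of 12 such fits.

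Ccl8 was the most abundant of these 4 by TPM in every group. It ranged between 13.9 and 91.5 CPM (median 38.8) in 8w off Tx skin, between 2.57 and 54.5 (median 6.03) in JAK1i skin, between 37.9 and 321 (median 175) in AA skin and between 18.3 and 45.1 (median 22.8) in healthy skin. In the JAK1i group, library A had 54.5 CPM and the other 5 had between 2.57 and 7.91 CPM, all of them under the lowest healthy library. Ccl8 was 6.6-fold higher in AA than in healthy skin (2.72 ± 0.58, adjusted p = 0.0011), and in JAK1i skin it was at 7.57% of the AA level (-3.72 ± 0.60, adjusted p = 6.7e-05). JAK1i against healthy skin gave -1.0 ± 0.62 (adjusted p = 0.43) with all libraries, and -2.32 (adjusted p = 0.043) without JAK1i library A. The 3.45-fold rise in 8w off Tx over JAK1i skin (1.79 ± 0.61, adjusted p = 0.027) held in 5 of 12 fits that each left out a library. It was lost without any of JAK1i B to F or 8w off Tx B or F, and was largest, at 3.11, without JAK1i A. Between 8w off Tx and AA skin Ccl8 differed by -1.94 ± 0.57 (adjusted p = 0.087), which passed the threshold without AA library D (-2.15, adjusted p = 0.046). It differed by 0.78 ± 0.59 between 8w off Tx and healthy skin (adjusted p = 0.33).

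JAK1i library A and AA library D account for the overlap of those groups in all 3 of these genes: JAK1i A had 7.34, 4.49 and 54.5 CPM of Ccl2, Ccl7 and Ccl8, above the 5.97, 3.67 and 37.9 CPM of AA D. JAK1i A also had 836 CPM of summed monocyte and macrophage markers, where the other JAK1i libraries had 274 to 518 CPM. Its Ccr2 level was 28.9 CPM, against 3.28 to 7.91 CPM in the others. The part of these markers in the Ccl8 level of library A was not tested.

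Ccl12 had 0 to 22 counts per library. It reached 4.25 CPM (median 0.884) in 8w off Tx skin, 1.2 CPM (median 0.227) in JAK1i skin, 3.63 CPM (median 1.77) in AA skin and 1.03 CPM (median 0.418) in healthy skin. AA libraries B and E, at 3.63 and 3.48 CPM, and 8w off Tx library F, at 4.25 CPM, were the highest, and these were also high for Ccl2 and Ccl7. When genes with low counts were kept in the fit, Ccl12 in JAK1i against AA skin changed by -2.27 (adjusted p = 0.024), and in AA against healthy skin by 1.90 (adjusted p = 0.072).

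The 250 bases before the annotated start are shown for Ccl8 and Ccl12, neighbours in the chromosome 11 cluster. They come from RefSeq on GRCm38.p6, plus strand, 5′ to 3′, and capitals mark TATAAA, the TATA-box core. RefSeq start windows were matched for 6 of the 10 members (Ccl8, Ccl12, Ccl17, Ccl20, Ccl22 and Ccl27a). Ccl8 is chr11:82114935-82115184, with TATAAA at -32 to -27, and Ccl12 is chr11:82101595-82101844, with it at -31 to -26, counted so that -1 is the last base before the start.
Ccl8: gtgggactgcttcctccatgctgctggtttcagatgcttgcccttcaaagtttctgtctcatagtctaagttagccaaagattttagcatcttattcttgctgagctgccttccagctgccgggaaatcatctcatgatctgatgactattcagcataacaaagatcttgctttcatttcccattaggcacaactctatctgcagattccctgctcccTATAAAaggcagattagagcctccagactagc
Ccl12: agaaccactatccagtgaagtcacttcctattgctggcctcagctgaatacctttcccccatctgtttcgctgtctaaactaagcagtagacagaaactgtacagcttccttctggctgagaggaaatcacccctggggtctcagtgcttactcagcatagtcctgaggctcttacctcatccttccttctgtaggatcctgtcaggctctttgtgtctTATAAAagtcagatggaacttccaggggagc
On either strand, TATAAA was in 2 of the 6 member windows and in 13% of 27025 mouse windows of that length. TTCNNNGAA, the core that STAT factors bind, was in 1 of 6 (Ccl17) and in 7.18% of all. TTTC, any 2 bases, then TTTC, an interferon regulatory factor core, was in none of the 6 and in 3.04% of all, and an NF-kB type site was in 1 of 6 (Ccl20) and in 7.01% of all. None of the matches in the members overlapped. A match is a description of letters and not a shown binding site, and its absence says nothing of the factor.

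Ccl11 and Ccl24 are eotaxins, ligands of Ccr3 that attract eosinophils, and they moved in opposite directions in AA skin. Ccl11, which fibroblasts make, ranged between 8.11 and 20.3 CPM (median 10.1) in 8w off Tx skin, between 8.84 and 16.5 (median 10.9) in JAK1i skin, between 7.14 and 19.1 (median 13.7) in AA skin and between 18 and 38.1 (median 23.6) in healthy skin. Every JAK1i library was below every healthy library, a separation that 1.14% of genes had. Ccl11 in AA skin was at 52.6% of the healthy level (-0.93 ± 0.25, adjusted p = 0.0057), in 8w off Tx skin at 49.5% (-1.01 ± 0.26, adjusted p = 0.0041) and in JAK1i skin at 45.9% (-1.12 ± 0.25, adjusted p = 0.032). The last call held in 5 of 12 fits that left out a library. It was lost without JAK1i B, C, E or F or healthy A, C or E, with adjusted p values of 0.056 to 0.081, and without both healthy A and E (-1.18, adjusted p = 0.12). Ccl11 differed by -0.20 between JAK1i and AA skin (95% interval -0.70 to 0.31) and by 0.11 between 8w off Tx and JAK1i skin (-0.40 to 0.62).

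Summed fibroblast markers had medians of 3028 CPM (2350 to 4025) in 8w off Tx skin, 6261 (4529 to 8721) in JAK1i skin, 3984 (1840 to 8301) in AA skin and 5415 (2392 to 6387) in healthy skin. Of the 6 markers, Dpt and Lum fell in AA and all but Col1a1 in 8w off Tx against healthy skin, and none passed in JAK1i against healthy skin, where Ccl11 was lower. Their part in the Ccl11 difference was not tested.

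Ccl24, a product of alternatively activated macrophages, had the largest estimated rise of the set in AA by counts, within an SE of that of Ccl17. It ranged between 0.885 and 43 CPM (median 9.83) in 8w off Tx skin, between 1.28 and 2.97 (median 2.33) in JAK1i skin, between 1.71 and 61.7 (median 18) in AA skin and between 0.176 and 4.63 (median 0.712) in healthy skin. AA libraries B and E, at 54.3 and 61.7 CPM, stood above the rest, and AA libraries C and D, at 1.71 and 3.9 CPM, were below healthy library F at 4.63 CPM. Ccl24 was 19.6-fold higher in AA than in healthy skin (4.29 ± 0.91, adjusted p = 4.0e-04), and JAK1i skin had 8.5% of the AA level (-3.56 ± 0.78, adjusted p = 7.6e-04). By TPM this fall was -1.33 and did not pass (adjusted p = 0.11), and it was -1.95 with TPM centred on the library median (adjusted p = 0.019). Skin of the 8w off Tx group was 6.74-fold above JAK1i skin (2.75 ± 0.79, adjusted p = 0.0083) and 11.2-fold above healthy skin (3.49 ± 0.92, adjusted p = 0.0037). The healthy libraries hold 45 counts of Ccl24 in all, so the size of the folds over them is uncertain.

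Transcripts of the eotaxin receptor and of 2 eosinophil granule proteins were few in every group. Ccr3 had 23 counts over the 24 libraries, and the granule protein genes Epx and Prg2 had 14 and 18. Of 2 eosinophil markers that could be tested, Siglecf was lower in AA than in healthy skin, at 0.411 ± 0.498 against 1.78 ± 0.927 CPM (-1.96 ± 0.73, adjusted p = 0.023). Ear2 differed by -0.33 ± 0.36 (adjusted p = 0.49). Siglecf had 14 counts in the AA libraries in all, so its value rests on few reads. The paper's histology reports some eosinophilia in inflamed AA skin, and these transcripts do not measure the number of eosinophils.

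Ccl17 and Ccl22 are neighbours on chromosome 8 and share the receptor Ccr4, carried by skin-homing and type 2 helper T cells and by regulatory T cells. Dendritic cells and macrophages are their best known sources. Ccl17 ranged between 0 and 9.31 CPM (median 3.1) in 8w off Tx skin, between 0 and 1.26 (median 0.436) in JAK1i skin, between 0.734 and 31.0 (median 8.32) in AA skin and between 0.343 and 1.28 (median 0.512) in healthy skin. AA libraries B and E were again the highest, at 31.0 and 23.5 CPM, and AA library C, at 0.734 CPM, fell inside the healthy range. Ccl17 was 17.2-fold higher in AA than in healthy skin (4.10 ± 0.90, adjusted p = 3.5e-04) and in JAK1i skin was at 4.37% of the AA level (-4.51 ± 0.91, adjusted p = 1.0e-04). The JAK1i and healthy groups hold 24 counts of Ccl17 each, so the folds against them rest on few reads. In 8w off Tx skin it was 7.75-fold above JAK1i skin (2.95 ± 0.94, adjusted p = 0.0095) and 5.82-fold above healthy skin (2.54 ± 0.93, adjusted p = 0.027). That last call was lost without 8w off Tx B or F or healthy D or F, and held in 8 of 12 such fits.

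Relative to its group mean, Ccl22 had a tighter spread between libraries than Ccl17 in every group. It ranged between 6.66 and 11.7 CPM (median 9.85) in 8w off Tx skin, between 2.99 and 8.53 (median 7.04) in JAK1i skin, between 10.5 and 29.8 (median 19.1) in AA skin and between 4.98 and 8.93 (median 6.65) in healthy skin. All 6 AA libraries lay above all healthy and all JAK1i libraries, where 8.17% of genes were separated upwards in AA from healthy skin and 13.8% downwards in JAK1i from AA skin. Ccl22 was 3.0-fold higher in AA than in healthy skin (1.58 ± 0.26, adjusted p = 4.9e-05), and JAK1i skin had 32% of the AA level (-1.64 ± 0.25, adjusted p = 2.2e-05). It alone of the set passed in 8w off Tx against AA skin, at 46.8% of the AA level (-1.09 ± 0.25, adjusted p = 0.032). This call held in 6 of 12 fits that left out a library, being lost without AA B or E or 8w off Tx A, C, D or E, with estimates of -1.22 to -0.939, and it was lost when the fit held the compared groups alone. Ccl22 in 8w off Tx skin differed from JAK1i skin by 0.55 ± 0.26 (adjusted p = 0.11) and from healthy skin by 0.49 ± 0.26 (adjusted p = 0.16). The corresponding Ccl17 difference between 8w off Tx and AA skin was -1.56 ± 0.66 (adjusted p = 0.2).

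The Ccl17 window is chr8:94810203-94810452 on the plus strand. It is shown because the gene had the largest estimated fall under the drug. Among the 6 members with a window, it also held the only TTCNNNGAA match. Capitals mark it, TTCTTTGAA at -99 to -91.
Ccl17: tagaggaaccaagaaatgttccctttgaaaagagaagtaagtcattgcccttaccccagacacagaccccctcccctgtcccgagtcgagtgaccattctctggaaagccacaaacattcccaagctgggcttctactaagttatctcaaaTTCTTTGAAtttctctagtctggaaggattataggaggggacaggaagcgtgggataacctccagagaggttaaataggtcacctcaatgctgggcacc
Ccr4 itself was lower in AA than in healthy skin, at 3.14 ± 1.6 against 6.23 ± 0.965 CPM (-0.95 ± 0.31, adjusted p = 0.015). By counts, this receptor and its ligands thus ran opposite ways in AA skin. By TPM the Ccr4 difference was smaller, at -0.57, or -0.28 less the median of all genes. In JAK1i against AA skin Ccr4 differed by 0.38 ± 0.31 (adjusted p = 0.31).

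Markers of dendritic and Langerhans cells did not move as a block with Ccl17 and Ccl22. In AA against healthy skin, 2 of 8 rose, Itgax (1.42 ± 0.35, adjusted p = 0.0027) and the migration receptor Ccr7 (1.52 ± 0.47, adjusted p = 0.011). The other changes were downward, in Cd209a (-2.24 ± 0.35), Flt3 (-1.26 ± 0.27), Zbtb46 (-0.53 ± 0.15) and the Langerhans cell gene Cd207 (-0.95 ± 0.20). Among monocyte and macrophage markers, none fell. Those that rose included Ly6c2 of inflammatory monocytes (2.31 ± 0.49, adjusted p = 3.7e-04) and the interferon-inducible Fc receptor gene Fcgr1 (2.77 ± 0.59, adjusted p = 4.8e-04), with Cd68 (0.72 ± 0.28) and C5ar1 (1.48 ± 0.55). Lyz2, the most abundant marker, gave 0.58 ± 0.37 (adjusted p = 0.23). In JAK1i against AA skin, Ly6c2, Fcgr1 and Cd14 fell and no marker of these cells rose. The part of these cells in the chemokine levels was not tested.

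Ccl20 and Ccl27a are epithelial chemokines. Ccl20, the ligand of Ccr6 on interleukin-17-producing T cells and dendritic cells, ranged between 1.55 and 3.72 CPM (median 2.63) in 8w off Tx skin, between 0.993 and 4.97 (median 2.85) in JAK1i skin, between 0.905 and 4.13 (median 1.72) in AA skin and between 0.989 and 4.92 (median 1.92) in healthy skin. The ranges of all 4 groups overlapped, and Ccl20 passed in no comparison by counts. By TPM it was higher in JAK1i than in AA skin (1.06, adjusted p = 0.027) and lower in 8w off Tx than in JAK1i skin (-1.14, adjusted p = 0.01), and with TPM centred on the library median these were 0.439 (adjusted p = 0.37) and 0.0117 (adjusted p = 0.98). Its difference by counts was -0.14 in AA against healthy skin (95% interval -0.93 to 0.66), and 0.52 in JAK1i against AA skin (-0.25 to 1.28). With 5 to 33 counts per library, a change within those limits was not detectable.

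The Ccl20 window, chr1:83116516-83116765 on the plus strand, is given as the member that passed in no comparison by counts and that held the NF-kB type match. Capitals mark that match, GGAAAACCCC at -80 to -71, which reads as the site on the other strand.
Ccl20: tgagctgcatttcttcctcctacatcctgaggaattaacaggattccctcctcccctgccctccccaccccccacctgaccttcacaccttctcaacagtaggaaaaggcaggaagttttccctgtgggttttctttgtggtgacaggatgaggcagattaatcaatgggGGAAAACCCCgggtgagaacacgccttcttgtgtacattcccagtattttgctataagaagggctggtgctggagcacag
Ccr6 was lower in AA than in healthy skin, at 1.24 ± 0.402 against 2.67 ± 0.862 CPM (-1.05 ± 0.33, adjusted p = 0.012).

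Ccl27a was the only member tested that rose in JAK1i against AA skin. It ranged between 35 and 55.6 CPM (median 47.6) in 8w off Tx skin, between 38.4 and 60.9 (median 48.4) in JAK1i skin, between 14.5 and 53.7 (median 31.9) in AA skin and between 52.6 and 126 (median 62.4) in healthy skin. AA libraries apart from D, at 53.7 CPM, lay below all healthy libraries. Ccl27a in AA skin was at 43.8% of the healthy level (-1.19 ± 0.23, adjusted p = 2.9e-04), and was 1.52-fold higher in JAK1i than in AA skin (0.61 ± 0.23, adjusted p = 0.033). The rise was lost without AA B, E or F or JAK1i C or D, with estimates of 0.455 to 0.586, and held in 7 of 12 such fits. It was at 63.7% of the healthy level in 8w off Tx skin (-0.65 ± 0.23, adjusted p = 0.031), a call lost without 8w off Tx B or healthy B or E and held in 9 of 12 fits. JAK1i skin differed from healthy skin by -0.59 ± 0.22 (adjusted p = 0.18).

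These Ccl27a values are uncertain because the gene has near-identical copies. Of the 2847 distinct stretches of 76 bases in its annotated transcripts, 937 (32.9%) also occur in other annotated genes, among them Gm20878 (19.9%), Gm13306 (16.6%) and Ccl27b (6.29%), while the other 9 members share none. By TPM, Ccl27a alone was lower in AA than in healthy skin (-1.59, adjusted p = 0.0023) and higher in JAK1i than in AA skin (1.18, adjusted p = 0.0073). The sum of its TPM with those of these 3 genes gave -1.56 (adjusted p = 9.7e-04) and 1.33 (adjusted p = 0.0015), and TPM of Ccl27a centred on the library median -1.32 (adjusted p = 5.7e-04) and 0.556, which did not pass (adjusted p = 0.099). In 8w off Tx against JAK1i skin the TPM of Ccl27a gave -1.08 (adjusted p = 0.0052) and the sum -1.26 (adjusted p = 6.3e-04), where its counts gave -0.06 ± 0.23 (adjusted p = 0.85) and its TPM centred on the library median 0.0641 (adjusted p = 0.88). Keratinocyte markers summed to medians of 8320 CPM in 8w off Tx, 8455 in JAK1i, 10424 in AA and 9397 in healthy skin, and their part in the Ccl27a level was not tested. Ccr10, the receptor of Ccl27a, differed by -0.03 ± 0.25 between AA and healthy skin (adjusted p = 0.93).

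Within a group, the same libraries tended to carry the high values of many members. AA libraries B and E were among the top 3 of their group for 9 of the 10 genes each. In 8w off Tx skin, libraries B, C and F were each in the top 3 for 9 genes, and library E was the lowest for 7. In the JAK1i group, library D was in the top 3 for all 10 and library A the highest for 5. The genes of a library share its tissue and depth, so they are not independent readings of a mouse.

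**Figure D3:**
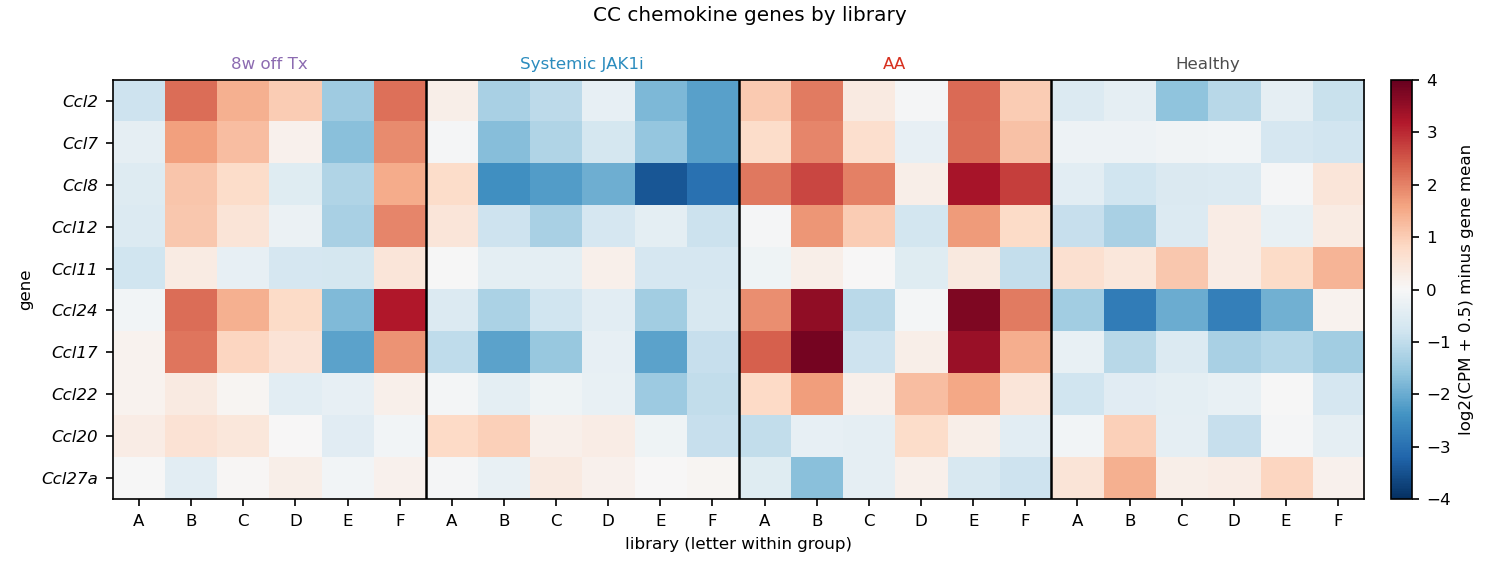
Heat map of the 10 genes in the 24 libraries, as log2(CPM + 0.5) less the mean of the gene, with libraries A to F under 8w off Tx, systemic JAK1i, AA and healthy. AA B and E and 8w off Tx B, C and F are high for most genes, and 8w off Tx E is low.

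Other tissue markers moved along with this order. In 8w off Tx skin, libraries B and F had the most monocyte and macrophage marker RNA, at 654 and 624 CPM, where the other 4 had 299 to 365 CPM. The same libraries had the least skeletal muscle RNA, at 6742 and 9126 CPM, and the order of the 6 libraries by muscle (E, A, D, C, F, B) was the reverse of their order by Ccl2. Without libraries A and E, 8w off Tx skin had Ccl2 2.77 log2 units above JAK1i skin (adjusted p = 9.3e-05), Ccl8 2.16 above (adjusted p = 0.011) and Ccl24 3.23 above (adjusted p = 0.0017). These libraries also had the lowest Ccl2, Ccl8 and Ccl24 of their group, so the differences had to grow without them. Against AA skin, no member then passed, Ccl22 giving -1.05 (adjusted p = 0.1), and against healthy skin Ccl27a no longer did (-0.63, adjusted p = 0.074). Without healthy A and E, the libraries with the least muscle RNA, Ccl7, Ccl17 and Ccl27a no longer passed in 8w off Tx against healthy skin (1.33, 2.82 and -0.628, with adjusted p of 0.11, 0.06 and 0.081). In AA skin, libraries E and C had the most monocyte and macrophage marker RNA, at 776 and 735 CPM. Of these, E had the highest Ccl2 and Ccl24 of its group and C the lowest Ccl17 and Ccl24. The part of muscle or myeloid RNA in these differences was not tested.

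Among the CC chemokine receptor genes, the 3 atypical receptors fell in AA skin. In AA against healthy skin, Ccr1, Ccr2 and Ccr7 rose and 5 receptor genes fell (Ccr4, Ccr6, Ackr1, Ackr2 and Ackr4), while Ccr8 and Ccr10 did not pass. Ackr1, Ackr2 and Ackr4 are atypical receptors that bind chemokines without G protein signalling. Ackr2 takes up inflammatory CC chemokines such as Ccl2, Ccl17 and Ccl22, Ackr4 takes up Ccl19, Ccl21 and Ccl25, and Ackr1 sits on venules.

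Ackr4 had the smallest adjusted p of the list. It lay between 11.6 and 27.4 CPM in 8w off Tx skin, 31.4 and 50.3 in JAK1i skin, 10.6 and 16.3 in AA skin and 39.9 and 56.3 in healthy skin. The AA libraries were below all healthy and all JAK1i libraries (AA against healthy -1.87 ± 0.16, adjusted p = 7.7e-08, JAK1i against AA 1.58 ± 0.16, adjusted p = 3.0e-07). Ackr2 lay between 5.02 and 21 CPM in 8w off Tx skin, 16 and 28.8 in JAK1i skin, 3.17 and 11 in AA skin and 34.5 and 42.7 in healthy skin. It too was separated between these groups (AA against healthy -2.37 ± 0.27, adjusted p = 1.4e-06, JAK1i against AA 1.71 ± 0.27, adjusted p = 3.1e-05). The share of all genes separated in these directions is not given here. In the opposite directions it was 8.17% (AA above healthy) and 13.8% (JAK1i below AA). All JAK1i libraries had less Ackr2 than the healthy ones, a separation that 1.14% of genes had, with -0.66 ± 0.25 and an adjusted p of 0.17. Endothelial markers, which fell in 5 of 5 genes in AA against healthy skin, summed to medians of 85.1 CPM in 8w off Tx, 198 in JAK1i, 78.2 in AA and 202 in healthy skin. Their part in the fall of Ackr1 (-1.80 ± 0.28, adjusted p = 2.6e-05) and of the other scavengers was not tested.

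Ccr2, the receptor of Ccl2, Ccl7 and Ccl12, averaged 35.8 ± 30.6 CPM in 8w off Tx skin, 9.28 ± 9.75 in JAK1i skin, 49.2 ± 31.4 in AA skin and 17.4 ± 6.97 in healthy skin. By counts it rose in AA over healthy skin (1.5 ± 0.54, adjusted p = 0.031), fell in JAK1i against AA skin (-2.41 ± 0.55, adjusted p = 0.0013) and rose in 8w off Tx over JAK1i skin (1.96 ± 0.56, adjusted p = 0.0087). For these differences, in that order, TPM gave 0.64, -0.68 and -0.17, or 0.93, -1.33 and 0.99 less the median of all genes. Ccr1, a receptor of Ccl7, was separated between AA and healthy skin, at 4.16 to 25.2 against 0.142 to 1.76 CPM (4.00 ± 0.76, adjusted p = 6.7e-05). A separation in that direction was found for 8.17% of all genes. Ccr8, the main receptor of mouse Ccl8, did not pass in that comparison (0.53 ± 0.36, adjusted p = 0.24) and fell in JAK1i against AA skin (-1.70 ± 0.40, adjusted p = 9.3e-04). The smallest adjusted p of any receptor was 0.13 in JAK1i against healthy skin (Ccr8, -1.16 ± 0.41) and 0.072 in 8w off Tx against AA skin (Ccr7, -1.66 ± 0.49).

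**Figure D4:**
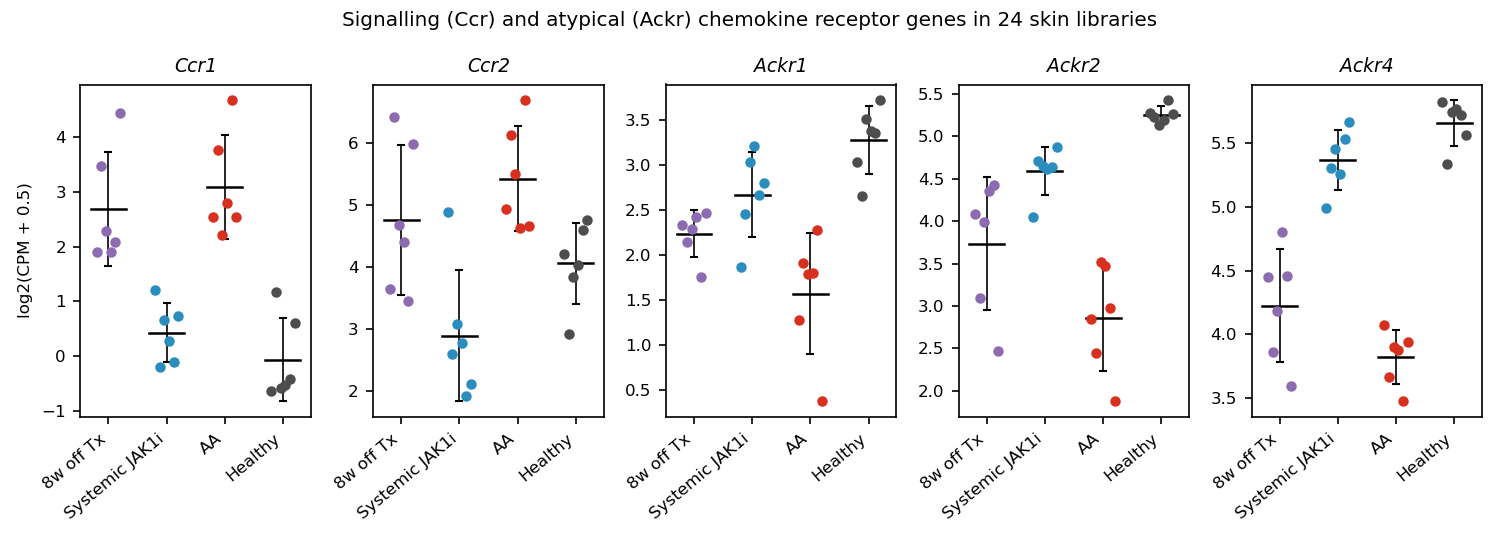
Levels of 5 receptor genes (Ccr1, Ccr2, Ackr1, Ackr2 and Ackr4) in each library, as log2(CPM + 0.5), with groups in the order 8w off Tx, systemic JAK1i, AA and healthy, and bars for the mean ± SD of 6. Ccr1 and Ccr2 are high in AA, and Ackr1, Ackr2 and Ackr4 are low in AA and highest in healthy skin.

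Among 13 other CC chemokine genes, 5 had enough counts to test. In AA against healthy skin, 4 rose. Ccl1, a ligand of Ccr8, was separated, at 2.46 ± 0.826 against 0.363 ± 0.267 CPM (2.73 ± 0.63, adjusted p = 4.5e-04). Of all genes, 8.17% were separated upwards in that comparison. Ccl5, a ligand of Ccr1, gave 2.58 ± 0.64 (adjusted p = 0.0017). Ccl6 (1.56 ± 0.52, adjusted p = 0.02) and Ccl9 (1.43 ± 0.47, adjusted p = 0.018) rose as well. Ccl25 gave 0.33 ± 0.22 (adjusted p = 0.25). In JAK1i against AA skin, Ccl1, Ccl5 and Ccl9 fell and none rose. Ccl3 and Ccl4, with 129 and 127 counts in all, and Ccl19, Ccl21a, Ccl21b, Ccl26, Ccl27b and Ccl28, with 80 or fewer, were not tested. For Ccl21a and Ccl27b the deposited TPM were not low: Ccl21a had 2 counts in all but means of 3.76 TPM in 8w off Tx, 54.7 in JAK1i, 9.66 in AA and 61.7 in healthy skin, and Ccl27b had 28 counts but 34.7 TPM in 8w off Tx, 65.6 in JAK1i, 23.9 in AA and 72.8 in healthy skin.

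Patterns most like those of the members were sought over all tested genes with a symbol, as the root mean square distance between log2 CPM scaled to mean 0 and SD 1 over the 24 libraries. The closest pair of members was Ccl2 and Ccl7, at 0.372, followed by Ccl7 and Ccl8 at 0.48 and Ccl17 and Ccl24 at 0.485. Nearest to Ccl2 were Itgax (0.326) and Icam1 (0.363), nearest to Ccl7 Ifitm3 (0.358) and Timp1 (0.369), and nearest to Ccl8 Dnajb11 (0.338), Hspa5 (0.397) and Ccr2 (0.416). Ccl17 was nearest to Il18bp (0.402), Ifi35 (0.415) and Timp1 (0.429), and Ccl24 to Tnfsf13b (0.403), Nos2 (0.419) and Erap1 (0.45). Ccl22 had Gmppb (0.514), Tnfrsf9 (0.522) and H2-D1 (0.528), Ccl27a had Cftr (0.458), Gas2l1 (0.506) and Mcf2l (0.532), and Ccl11 had Ptpro (0.553), Olfm1 (0.587) and Flrt2 (0.63). Ccl20 had no close match, its nearest gene being Asic3 at 0.876. All genes of a library share its depth and tissue composition, and the distances are descriptions.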

How the data were processed

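RNA was sequenced by the authors as paired reads of 76 bases from stranded, ribosome-depleted total RNA that was not fragmented, because the RNA was degraded. The submitters' processing notes name bcl2fastq, HISAT2 2.0.1, featureCounts 1.4.4 and mm10. The authors deposited raw counts per gene and TPM, the tool for which is not given in the sources used here. A further 6 columns in both files matched no sample and were not used.

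Genes with low counts were filtered in edgeR 4.0.16 (filterByExpr, minimum 10, 16248 genes kept), and counts were normalised by TMM and fitted over all 4 groups at once (R 4.3.3). Each of 6 comparisons used the two-sided quasi-likelihood F-test, with Benjamini-Hochberg adjustment over all genes tested. Intervals are the estimate ± 1.96 SE. The scripts were tested on simulated data.

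The members and the lists of receptors, other CC chemokines and cell markers were chosen with earlier results of these data known. All 10 members are named. From a list, the receptors of a ligand described, the 2 smallest adjusted p values and the 2 highest CPM levels are named, and other genes where a count was 5 or fewer. For likeness, the 3 nearest genes with a symbol other than Gm or Rik models were taken. Some genes of these lists are not reported here, though summed marker levels include them.

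Alternatives were DESeq2 1.42.0, RLE and upper-quartile scaling, no filter, a minimum of 20 counts in 6 libraries, a fit of the compared groups alone, a replicate block, limma 3.58.1 on log2 of the deposited TPM with a pseudocount of 0.1 or 1, and leaving out each library. Centring TPM on the library median, leaving out healthy or 8w off Tx libraries A and E, and adding the TPM of Ccl27a copies were chosen after seeing the data.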

Additional observations from a re-analysis of the deposited data

Results flagged for a closer look

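In the systemic JAK1i group, Ccl8 was far higher in library A than in the other 5 libraries, at 54.5 CPM against 2.57 to 7.91 CPM. On the log2(CPM + 0.5) scale the gap to the nearest library was 0.65 of the whole range of the group, above Dixon's 95% critical value for 6 samples. Such a gap arises by chance in about 1 of 20 sets, and this was the only 1 in 40 sets of 6 libraries examined. The same library had the highest Ccl2, Ccl7 and Ccl12 of its group, at 7.34, 4.49 and 1.2 CPM.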

How the results depend on the processing

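None of the 28 member results past the threshold changed direction in any of their 676 alternative values, and 107 of those values no longer passed. Member calls for which no lost library is named in the report held in all 12 fits that left out a library. With each library left out in turn, 8 to 9 members passed in AA against healthy skin, 6 to 8 in JAK1i against AA, 0 to 2 in JAK1i against healthy, 4 to 6 in 8w off Tx against JAK1i, 3 to 6 in 8w off Tx against healthy (3 without 8w off Tx B) and 0 to 2 in 8w off Tx against AA.

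When limma was run on log2 TPM (pseudocount 0.1, then 1, then 0.1 unfiltered), 6, 6 and 1 members passed in AA against healthy skin, 0 each time in JAK1i against healthy, 3 each time in 8w off Tx against JAK1i, 2 each time in 8w off Tx against healthy, and 2, 2 and 0 in 8w off Tx against AA. The 3 were Ccl11, Ccl20 and Ccl27a, all lower, so each of the 5 rises by counts was lost, and the 2 against healthy were Ccl11 and Ccl27a, so each of the 4 rises there was lost. In JAK1i against AA, 7, 7 and 5 passed, with Ccl20 gained each time (1.06, 0.658 and 1.06) and Ccl24 lost (-1.33, -1.15 and -1.33). On that scale the median of all genes moved by -0.29 in AA against healthy, 0.65 in JAK1i against AA, 0.34 in JAK1i against healthy, -1.16 in 8w off Tx against JAK1i, -0.80 in 8w off Tx against healthy and -0.51 in 8w off Tx against AA. With TPM centred on each library's median, 3 members passed in 8w off Tx against healthy and 0 in 8w off Tx against AA.

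A fit of the compared groups alone gave 3 in 8w off Tx against JAK1i and 0 in 8w off Tx against AA, and DESeq2 gave 2 in the last comparison. Without healthy A and E, 0 passed in JAK1i against healthy and 3 in 8w off Tx against healthy. Without 8w off Tx A and E, 0 passed in 8w off Tx against AA. The replicate block on the library letter gave 0 in JAK1i against healthy and 0 in 8w off Tx against AA. Letters do not pair the libraries by the labels, and deviations of same-letter libraries correlated above 0.1 in 1 to 3 of 6 pairs per comparison, with 0 to 2 of 6 libraries correlating best with their own letter.

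Every change of direction was in a result that had not passed. On log2 TPM (0.1, 1, and 0.1 unfiltered) these were Ccl11 in JAK1i against AA (0.435, 0.343, 0.435), Ccl2 and Ccl22 in JAK1i against healthy (0.0835, 0.1, 0.0835 and 0.307, 0.231, 0.307), Ccl11 and Ccl22 in 8w off Tx against JAK1i (-1.09, -0.89, -1.09 and -0.6, -0.389, -0.6), Ccl8, Ccl20 and Ccl22 in 8w off Tx against healthy (-0.379, -0.35, -0.379, then -0.397, -0.225, -0.397, then -0.293, -0.158, -0.293) and Ccl20 in 8w off Tx against AA (-0.0742, -0.0481, -0.0742). Centred TPM gave 0.0117 for Ccl20 and 0.0641 for Ccl27a in 8w off Tx against JAK1i. The replicate block gave 0.0329 and leaving out healthy A and E 0.138 for Ccl2 in JAK1i against healthy. Without 8w off Tx A and E, Ccl2, Ccl7 and Ccl11 gave 0.444, 0.0526 and 0.114 against AA. Leaving out single libraries, the sign changed for Ccl20 in AA against healthy (-0.436 to 0.234), Ccl2 and Ccl22 in JAK1i against healthy (-0.435 to 0.11 and -0.158 to 0.0862), Ccl11, Ccl20 and Ccl27a in 8w off Tx against JAK1i (-0.0747 to 0.239, -0.329 to 0.0218 and -0.127 to 0.00834) and Ccl2 and Ccl11 in 8w off Tx against AA (-0.308 to 0.252 and -0.271 to 0.0344). The cause of these changes was not tested. Ccl12, with 132 counts, was under the filter, and healthy skin held 24 counts of Ccl17 and 45 of Ccl24.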
